A study of Mus musculus with 2 samples.

Results

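Apol7c and Apol10b, 2 genes of the mouse apolipoprotein L family, were followed in dendritic cells of the lung. They were taken by symbol from the 31053 genes of both deposited matrices, and they were chosen because earlier results of these data showed Apol7c among the leading genes of mature dendritic cells. Their level in mature cells is therefore given as a description, with no test. The series holds 2 droplet single-cell RNA libraries from lungs of C57BL/6 mice aged 8 to 10 weeks in steady state. In 1 library the cells had been sorted for XCR1 (cDC1 library), and in the other for CD172a, the product of Sirpa (cDC2 library). No treatment or altered allele is named for either library, and the sources used here do not state how many mice were used. With 1 library per sort, the sort and the library cannot be told apart, and no p-value was computed.

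Apolipoprotein L proteins can insert into membranes, and several form channels. APOL7C is known from dendritic cells, where it can be recruited to phagosomes and damage their membrane, which lets engulfed antigen reach the cytosol for cross-presentation to CD8 T cells. Conventional dendritic cells mature without infection too. On maturing they take up Ccr7, the chemokine receptor that guides them to the draining lymph node, and Fscn1, an actin-bundling protein of the long dendrites of mature cells.

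Depth was similar in both sorts. The 2574 cells kept from the cDC1 sort had 35071861 UMIs (unique molecular identifiers, 1 per captured transcript), with a median of 12866 per cell. Those kept from the cDC2 sort, 2835 in number, had 38613693 UMIs and a median of 12655. A cluster of 182 cells, 110 of the cDC1 and 72 of the cDC2 library, carried all 10 of the mature dendritic cell markers. It was led by Fscn1, Cacnb3, Nudt17, H2-M2 and Ccl5. The libraries shared 6 barcode sequences, of which 5 and 6 were in kept cells. Leaving these cells out changed the count of genes at least 2-fold higher in mature cells, as defined below, from 928 to 926 (cDC1) and from 684 to 679 (cDC2).

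Both genes lie on chromosome 15 of GRCm38 on the minus strand, in a cluster of 11 family genes that spans 368.785 kb. Apol7c (ENSMUSG00000044309, chr15:77524852-77533316) is protein-coding with 5 exons in its main transcript, and Apol10b (ENSMUSG00000050014, chr15:77583819-77596125) is protein-coding with 4. They are 50502 bases apart with 1 annotated gene, 1700025B11Rik, between them, and no annotated gene overlaps either. Family members are alike in sequence, which matters for counting at the 3′ end. The last 500 bases of Apol7c matched Apol7a at 85.6% identity over 508 aligned positions. No stretch of 91 bases in that end, or in that of Apol10b, occurred in a transcript of another gene. The longest match of the Apol10b end to a family gene was to Apol11b, at 92.5% identity over 67 positions, followed by Apol11a at 92.9% over 56.

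The 250 bases before each start site, from RefSeq (GRCm38.p6), are shown because both genes appear in the same cells while their promoters differ. Capitals mark matches to the core of the interferon-stimulated response element, which is GAAA and GAAA with any 2 bases between, and to the TATA box letters TATAA, each searched on both strands. The Apol7c window is chr15:77533316-77533565 and the Apol10b window chr15:77596126-77596375, both on the minus strand.
Apol7c promoter: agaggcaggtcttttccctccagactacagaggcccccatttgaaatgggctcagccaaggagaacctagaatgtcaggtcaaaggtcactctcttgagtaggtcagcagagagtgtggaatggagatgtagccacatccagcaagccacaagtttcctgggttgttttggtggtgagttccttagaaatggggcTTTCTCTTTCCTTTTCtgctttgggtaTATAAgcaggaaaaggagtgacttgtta
Apol10b promoter: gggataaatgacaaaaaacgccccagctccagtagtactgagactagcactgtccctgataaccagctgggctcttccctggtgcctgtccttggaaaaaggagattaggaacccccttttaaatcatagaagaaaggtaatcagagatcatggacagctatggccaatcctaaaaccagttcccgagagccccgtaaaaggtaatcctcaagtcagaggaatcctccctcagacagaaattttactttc
Apol7c held 2 overlapping matches to the response element core on the opposite strand, the first beginning 55 and the second 49 bases before the start, and a TATA box match at 28 bases. Of 32851 promoter windows of this length, 2.98% held the response element core and 22.8% the TATA box letters. Apol10b held neither. No match to the AP-1 letters TGANTCA (6.75% of windows), to the ETS-IRF composite, GGAA and GAAA with any 2 bases between (2.30%), or to the NF-kappaB site (3.90%) was found in either window. These are matches of letters, not measured binding.

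Over whole libraries both genes were rare. Apol7c had 430 UMIs in 45 cells of the cDC1 library, or 12.3 CPM (counts per 1000000 UMIs; 95% exact Poisson interval 11.1 to 13.5). In the cDC2 library it had 579 UMIs in 58 cells, or 15 CPM (13.8 to 16.3). The cDC2 to cDC1 ratio was 1.22 (exact conditional binomial interval 1.08 to 1.39), below the 2-fold rule of size, which 7.79% of 6610 genes measured at 10 CPM or more passed upwards. Apol10b had 11 UMIs in 5 cells and 7 UMIs in 6 cells, with a ratio of 0.578 (0.190 to 1.63). All intervals cover counting error only and not the spread between cells or animals.

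Cells were divided by their UMIs per 10000 UMIs of the cell. Resting cells had Ccr7 and Fscn1 under 2, Ccr7-positive Fscn1-low cells had Ccr7 at 2 or more with Fscn1 under 2, and Fscn1-high cells had Fscn1 at 2 or more. The cDC1 library held 2289, 200 and 85 cells of these states and the cDC2 library 1495, 1263 and 77. Median depths were 12834, 13273.5 and 12269 UMIs in the cDC1 library and 12377, 13079 and 10682 in the cDC2 library. Of the Ccr7-positive Fscn1-low cells, 30 of 200 (15%) and 10 of 1263 (0.792%) fell in the mature cluster. B cells made up 3 and 33 of them, cycling cells 15 and 143, and cells of clusters without a name 37 and 561. The state is thus a mix of cells past a Ccr7 limit, and its place in maturation was not tested.

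Apol7c was almost wholly a transcript of Fscn1-high cells. In the cDC1 library its level was 0.193 CPM in resting cells (6 UMIs in 6 cells), 3.93 in Ccr7-positive Fscn1-low cells (11 UMIs in 4 cells) and 364 in Fscn1-high cells (413 UMIs in 35 cells). In the cDC2 library the same states had 0.653 CPM (13 UMIs in 13 cells), 2.93 (52 UMIs in 8 cells) and 527 (514 UMIs in 37 cells). Fscn1-high cells, 85 and 77 in number, thus carried 96.0% and 88.8% of each library's Apol7c UMIs. No resting cell had more than 1 UMI.

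The Fscn1-high level was 1887-fold the resting level in the cDC1 library (859 to 5171) and 807-fold in the cDC2 library (468 to 1527). Apol7c passed the 2-fold rule upwards in both, as did 13.9% of 6698 genes and 9.79% of 6988. The members were chosen on this contrast, so nothing is read from that count.

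Apol10b followed the same states at a far lower count. It had no UMI in 2289 and 1495 resting cells. In Fscn1-high cells it had 11 UMIs in 5 cells of the cDC1 library (9.68 CPM, 4.83 to 17.3) and 5 UMIs in 5 cells of the cDC2 library (5.13 CPM, 1.67 to 12.0). The only other cell with a UMI was a Ccr7-positive Fscn1-low cell of the cDC2 library with 2. Against a floor of 3 UMIs over the resting cells, Apol10b was at least 100.5-fold and at least 34.0-fold higher in Fscn1-high cells. With the counting error of its 11 and 5 UMIs, the lower limits were 68.8-fold and 18.7-fold. It stayed under 10 CPM in every state and so was not among the genes the 2-fold rule measured.

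Shares of cells depend on depth, so each cell was thinned to 5000 UMIs and shallower cells were left out (71 and 135 cells). An Apol7c UMI was then found in 29 of 80 Fscn1-high cells of the cDC1 library (36.25%, exact Clopper-Pearson interval 25.8 to 47.8) and in 31 of 72 of the cDC2 library (43.1%, 31.4 to 55.3). Without thinning the shares were 41.2% and 48.1%. In resting cells the thinned shares were 0.223% and 0.351%. Clusters named as B cells, neutrophils and NK cells, which should lack the gene, had none in 130 cells at a median of 4926 UMIs, which allows a share of cells with a UMI of up to 2.31% (3 of 130). That limit lies above the resting shares, so these cells, which are also shallower, set no background for them. For Apol10b the thinned Fscn1-high shares were 0 of 80 (0 to 4.51%) and 2 of 72 cells (2.78%). Thinned to 2000 UMIs, the cDC1 share was 2.35%, within that interval. With so few UMIs, single cells were called for Apol10b only at full depth.

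**Figure D1:**
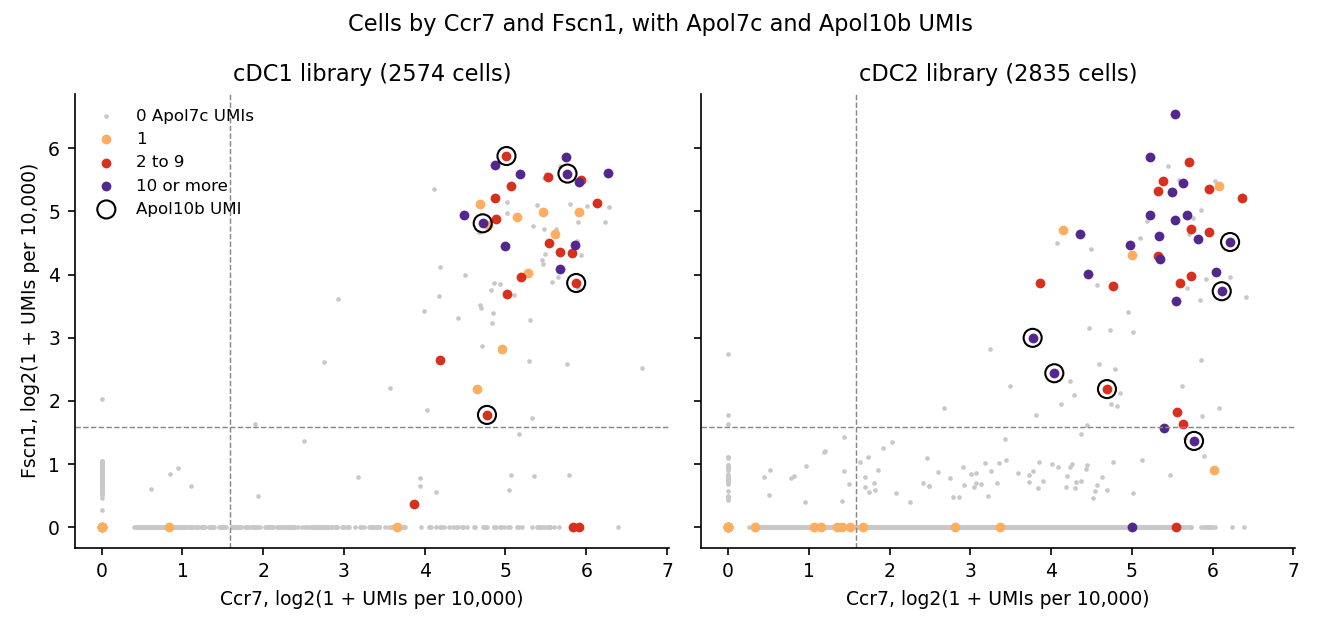
Each point is a kept cell, placed by Ccr7 (horizontal) and Fscn1 (vertical), both as log2(1 + UMIs per 10,000), 1 panel per library; colour gives the Apol7c UMIs of the cell, rings mark cells with an Apol10b UMI and dashed lines mark the limits of 2 UMIs per 10,000. Cells with 2 or more Apol7c UMIs sit at high Ccr7, and 7 of them lie below the Fscn1 limit.

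The level of Apol7c was read against Fscn1 and against Ccr7 separately. By Fscn1, the cDC1 library had 0.456 CPM of Apol7c in cells without an Fscn1 UMI and 1.93 CPM in cells above 0 but under 2. It had 43.2 CPM at 2 to under 5, 39.1 at 5 to under 10, 112 at 10 to under 20, 412 at 20 to under 40 and 1114 at 40 or more. The share of cells with an Apol7c UMI went from 0.371% in the lowest of these bins to 66.7% (10 of 15 cells) in the highest. The cDC2 levels over the same bins were 0.835, 20.4, 88.8, 57.0, 697, 1089.6 and 971 CPM. At 10 to under 20 it thus had 697 CPM where the cDC1 library had 112. Bins from 2 upwards hold 9 to 27 cells, and 1 cell can carry much of a bin. Without the highest cell of each bin, the cDC1 values from 2 upwards were 8.75, 6.86, 73.6, 313 and 835 CPM, and the cDC2 values were 38.6, 0, 579, 958 and 511 CPM. The cDC2 bin above 0 and under 2 fell from 20.4 to 8.81 CPM in this way.

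By Ccr7 the pattern was flat and then steep. Below 10 Ccr7 UMIs per 10000 no bin of either library exceeded 0.829 CPM of Apol7c, and both cDC1 bins from 2 to under 10 had 0 UMIs in 71 and 55 cells. At 10 to under 20 the levels were 13.9 CPM in the cDC1 and 10.8 in the cDC2 library, at 20 to under 40 they were 199 and 56.7, and at 40 or more they were 345 in each. Without the highest cell, the bins at 10 to under 20 had 5.29 and 5.99 CPM.

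**Figure D2:**
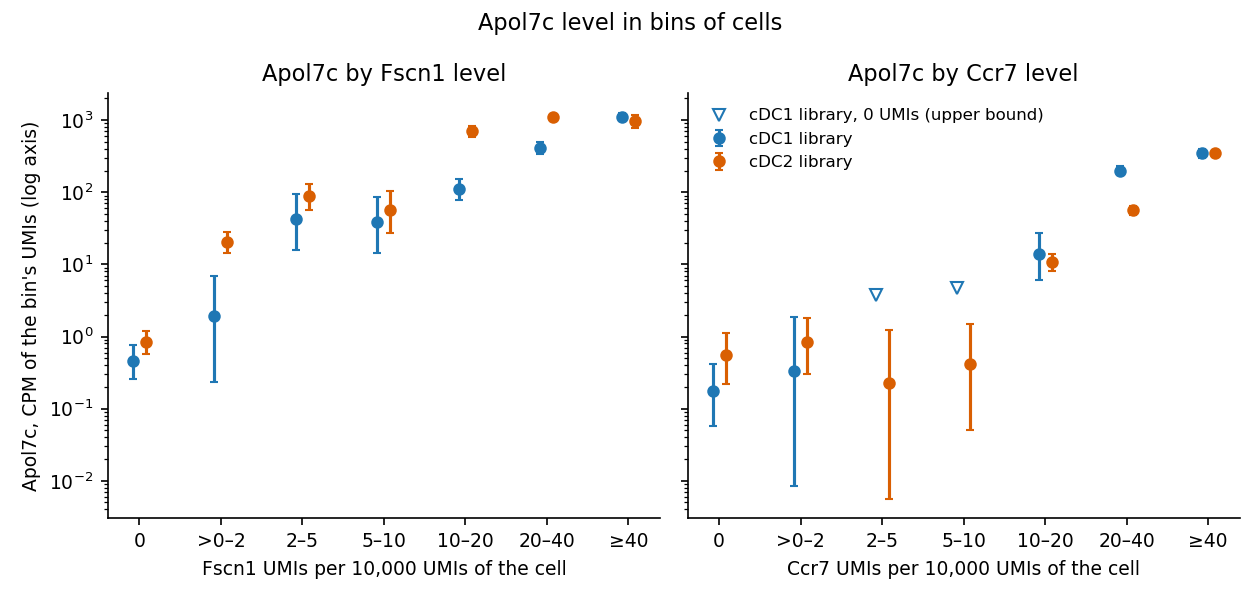
Apol7c level in CPM (log axis) in bins of cells by Fscn1 (left) or Ccr7 (right) UMIs per 10,000, for the cDC1 (blue) and cDC2 (orange) libraries; bars are 95% exact Poisson intervals and open triangles are upper bounds where no UMI was counted. Against Ccr7 the level stays under 1 CPM, or at 0 UMIs, in every bin under 10 and reaches 345 CPM in the top bin of both libraries.

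High Ccr7 without Fscn1 rarely came with Apol7c. Among cells with Ccr7 at 10 or more, an Apol7c UMI was found in 4 of 77 cells with Fscn1 under 2 (5.19%) and in 35 of 81 with Fscn1 at 2 or more (43.2%) in the cDC1 library. For cDC2 the counts were 5 of 619 (0.808%) and 37 of 72 (51.4%). At Ccr7 of 40 or more the shares were 10.5% of 19 against 43.2% of 37 cells, and 8.51% of 47 against 58.3% of 36. The reverse combination was rare: 4 and 5 Fscn1-high cells had Ccr7 under 10, and none held an Apol7c UMI.

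Outside the Fscn1-high state 7 cells had more than 1 Apol7c UMI, and they can be listed singly. Nothing here orders these cells in time, and whether Fscn1 transcripts were missed in them was not tested. In the cDC1 library a cell with 5 and a cell with 3 Apol7c UMIs had no Fscn1 UMI and Ccr7 at 56.1 and 59.0 per 10000, and a cell with 2 had Ccr7 at 13.6. The cDC2 cells held 20, 14, 11 and 3 Apol7c UMIs, with Ccr7 at 41.1, 53.6, 31.1 and 45.8. The cell with 20 had Fscn1 at 1.96, just under the limit, and the cell with 14 was the Apol10b-positive cell of that state. Of the 7 cells, 5 fell in the mature cluster. That cluster was formed without the Apol family, but its markers include Ccr7 and Fscn1.

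These few cells set the level of the Ccr7-positive Fscn1-low state. It was 20.4-fold the resting level in the cDC1 library (6.91 to 67.1) and 4.49-fold in the cDC2 library (2.41 to 8.99). Without the single cell of most Apol7c UMIs these became 11.2-fold (2.98 to 41.7) and 2.77-fold (1.41 to 5.74). Without cells of the mature cluster they became 6.58-fold (1.06 to 30.8, from 3 UMIs) and 1.48-fold (0.676 to 3.31). From that state to Fscn1-high cells Apol7c was a further 92.6-fold (51.2 to 187) and 179.8-fold (135 to 244) higher, and 11.2% of 6460 genes and 13% of 6706 were at least 2-fold higher in that step. Between resting and Ccr7-positive Fscn1-low cells Apol7c was under 10 CPM in both states and so was not measured by the 2-fold rule. Cells just outside the Fscn1 limit, at 1 to under 2, held 0 Apol7c UMIs in 6 cells and 34 UMIs in 2 of 25 cells. Cells just inside, at 2 to under 3, held 5 UMIs in 1 of 4 cells and 8 UMIs in 2 of 12.

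Genes were put on a common scale by the share of the rise, from resting to Fscn1-high level, that Ccr7-positive Fscn1-low cells had reached. A gene with a low share is called late here. Ccr7 and Fscn1 set the states, so a gene that follows Fscn1 comes out late by construction. The scale gives no order in time. Apol7c had reached 1.03% of its rise in the cDC1 library (0.486 to 1.88) and 0.433% in the cDC2 library (0.292 to 0.606). Ccr7, which defines the state, had reached 38.9% and 37.6%, and Fscn1, which sets its upper limit, 0.163% and 0.150%. Of 30 maturation genes, 25 had a rise that could be ranked in each library, and their median was 15% and 2.68%. The make-up of the state differed between the libraries, so these medians are not compared. In the cDC1 library Apol7c was the latest of these 26 genes. The next were Il15ra, which presents interleukin 15 (1.62%), the chemokine Ccl5 (1.63%) and the transporter Slco5a1 (4.07%), and the intervals of all 3 overlapped that of Apol7c. In the cDC2 library it was the fourth latest, between Tnfrsf4, Cd200 and Nudt17 (0.204%, 0.367% and 0.368%) and Cacnb3, Slco5a1 and Samsn1 (0.680%, 0.804% and 1.12%). Tnfrsf4 encodes the costimulatory receptor OX40 and Cd200 an inhibitory ligand. The intervals of all 6 overlapped that of Apol7c. In the cDC2 library the cells with 20 and 14 UMIs, both just under the Fscn1 limit, hold 34 of the state's 52 UMIs. With an Fscn1 limit of 1 the share was 0.0854% and Apol7c the latest of 26, and with no Fscn1 UMI allowed it was 0.0699% and only Cd200 was later. At the other end stood Ccl22, a chemokine for regulatory T cells, with 76.2% and 33.4%. Over all genes at 50 CPM or more in Fscn1-high cells and at least 4-fold the resting level, 14 of 188 in the cDC1 library and 43 of 107 in the cDC2 library had a lower share than Apol7c, so its late place is shared by many genes in the cDC2 library. Apol10b had 0 and 2 UMIs in the Ccr7-positive Fscn1-low state, too few to place it.

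**Figure D3:**
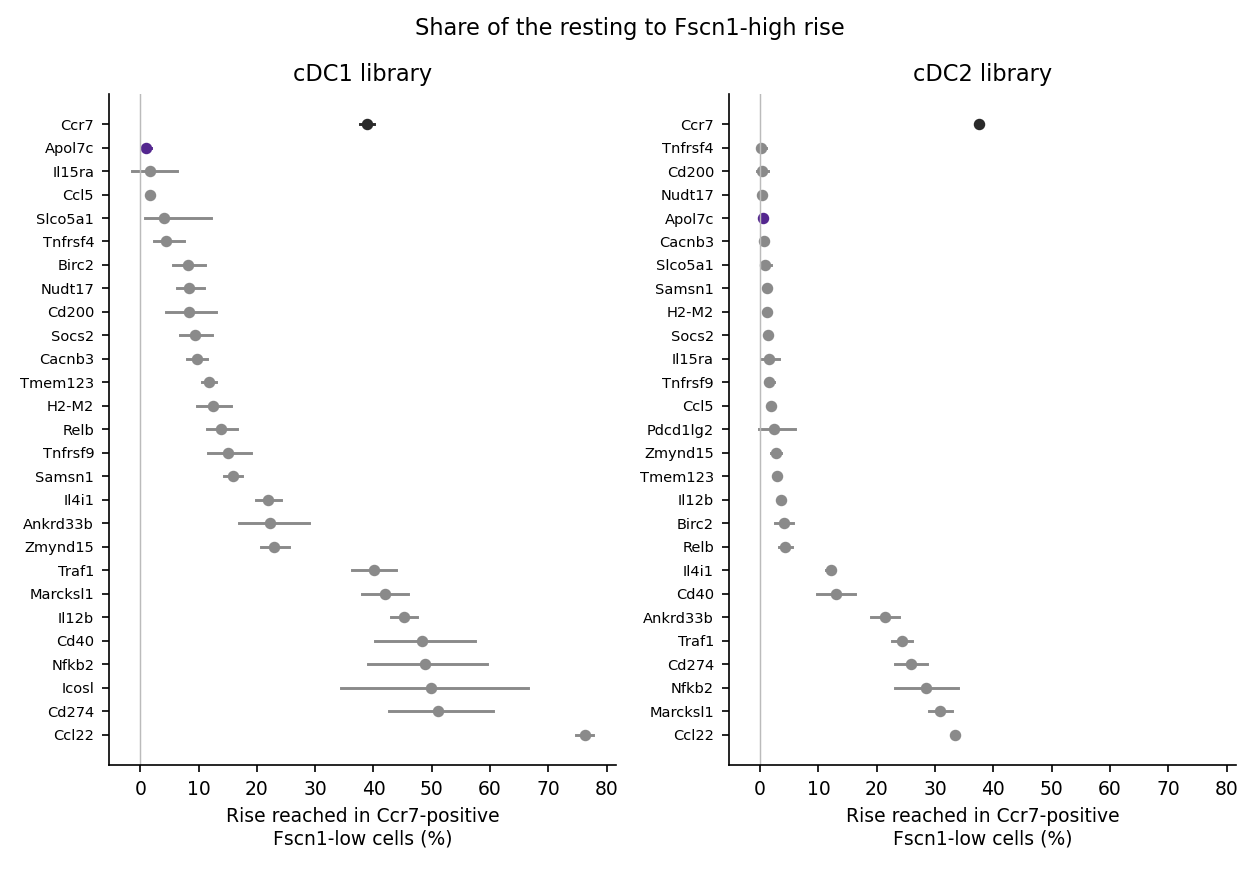
Share of the rise from resting to Fscn1-high level that Ccr7-positive Fscn1-low cells had reached (horizontal, percent), for Apol7c (purple), the maturation genes that could be ranked (grey) and Ccr7 (black), 1 panel per library; lines are 95% intervals of counting error. Apol7c is the lowest of 26 genes in the cDC1 library and the fourth lowest in the cDC2 library.

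A second scale used neither Ccr7 nor Fscn1. Cells were ranked in each library by a score over 30 maturation genes after thinning. Apol7c stayed at or under 4.0 CPM up to the 95th percentile of that score in the cDC1 library and at or under 2.25 CPM in the cDC2 library. The cDC2 bin from 90 to 95, at 0 CPM here, had 8.28 CPM with the score taken at 2000 UMIs per cell and 13.7 CPM with dendritic clusters only. Between the 95th and 98th percentiles it reached 84.0 CPM (16.8% of its top level) and 53.9 CPM (6.86%), and above the 98th it was 501 and 787 CPM. In the 95 to 98 bin Ccr7 had already reached 60.6% and 48.3% of its top level, while Fscn1 had reached 21.4% and 3.92%. In that bin 1 of 29 maturation genes in the cDC1 library and 4 of 26 in the cDC2 library stood lower than Apol7c relative to their top level. Those were Slco5a1 in the first, and Cd200, H2-M2, Tnfrsf4 and Il12b in the second. The bin held 28 Fscn1-high cells among 75 in the cDC1 library and 10 among 81 in the cDC2 library. With only clusters named as dendritic in the ranking, the bin held 37 Fscn1-high cells among 62 and 26 among 50. Apol7c was then at 216 of 438 CPM (49.4% of its top level) and 259 of 1042 CPM (24.8%), Fscn1 at 35.0% and 22.4%, and Ccr7 at 67.4% and 58.6%. In that setting 7 of 29 and 6 of 25 maturation genes stood lower than Apol7c, so its distance from Ccr7 on this scale depends on which cells are ranked.

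**Figure D4:**
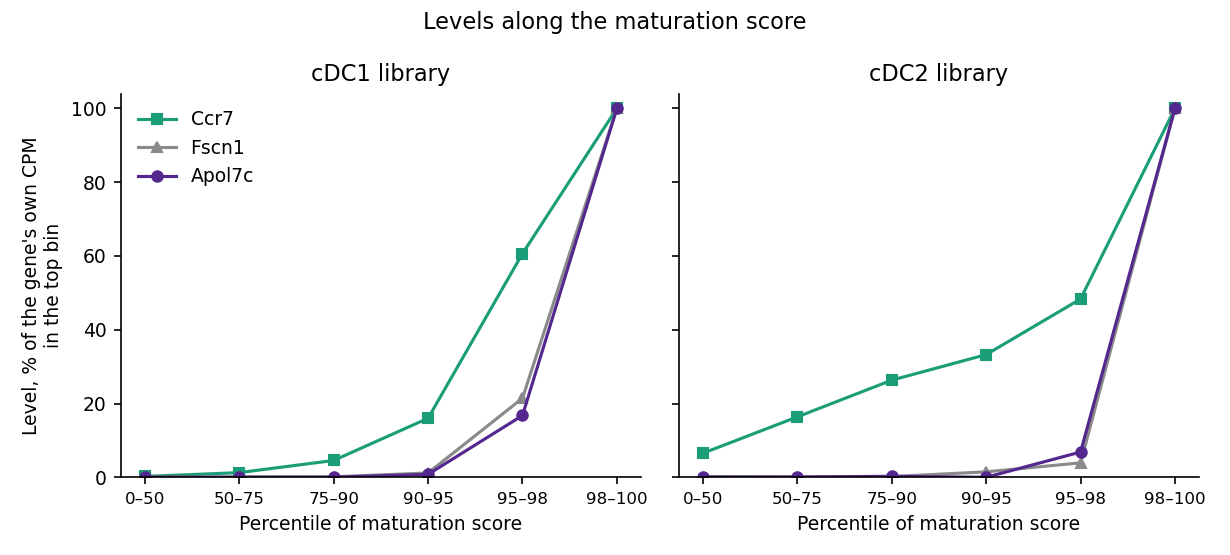
Level of Apol7c (purple), Fscn1 (grey) and Ccr7 (green), each as a percentage of its own CPM in the top bin (vertical), in bins of cells by percentile of the maturation score (horizontal), 1 panel per library. In the 95 to 98 bin Apol7c is at 16.8% and 6.86% where Ccr7 is at 60.6% and 48.3%.

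Even among Fscn1-high cells Apol7c was uneven. In the cDC1 library 50 of 85 cells had no UMI, 11 cells had 10 or more, and the highest had 69, 49 and 34. Among cDC2 cells 40 of 77 had none, 19 had 10 or more, and the highest had 50, 41 and 34. The 5 highest cells of the cDC1 library and the 8 highest of the cDC2 library held at least 50% of the state's UMIs. At 5000 UMIs per cell the variance of Apol7c was 13 and 9.45 times its mean, against 1.60 and 2.09 for Cacnb3, a calcium channel subunit of similar mean. Other mature genes were uneven too: the ratio was 14.8 and 11.5 for Il12b, 6.80 and 6.52 for H2-M2 and 74.1 and 32.6 for Ccl5, and Il12b, of similar mean in the cDC2 library, was found in 36.1% of its cells. Of 231 and 127 genes with a mean within 1.5-fold of that of Apol7c, only 1 and 2 were found in fewer cells, and the median gene of these sets was in 78.75% and 87.5% of cells.

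**Figure D5:**
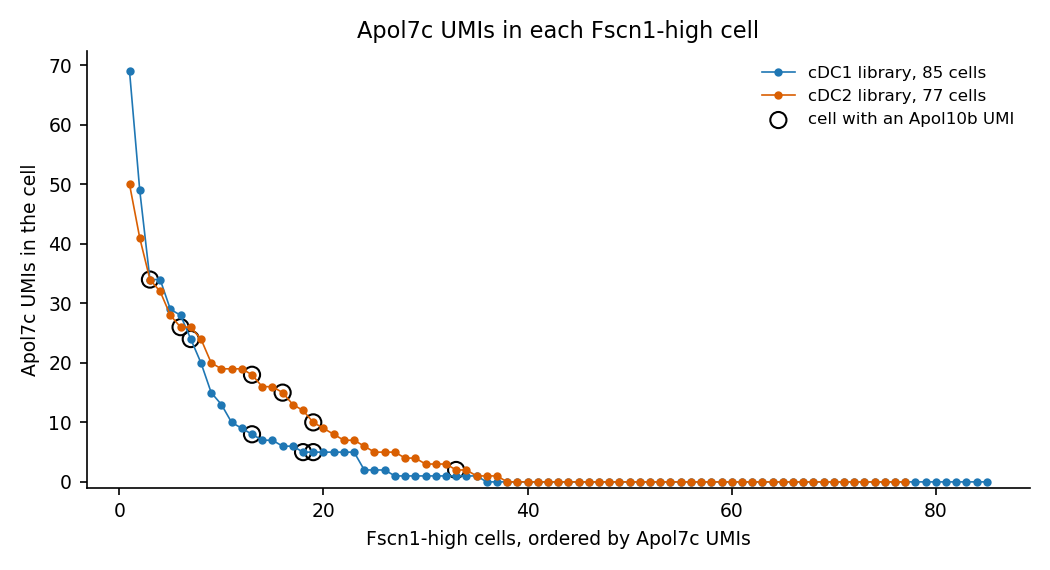
Apol7c UMIs (vertical) in each Fscn1-high cell, ordered from most to fewest (horizontal), for 85 cells of the cDC1 library (blue) and 77 of the cDC2 library (orange); black rings mark cells with an Apol10b UMI. The curves fall from 69 and 50 UMIs to 0, with 50 and 40 cells at 0.

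Every cell with Apol10b also had Apol7c. The 5 such cells of the cDC1 library held 5 to 34 Apol7c UMIs and the 6 of the cDC2 library 2 to 26. No cell had Apol10b alone, while 40 and 52 cells had Apol7c alone. Across all cells of a library, the correlation of log2(1 + UMIs per 10000) between both genes was r = 0.404 in 2574 cells and 0.362 in 2835. It rests on 5 and 6 cells and is a description only.

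Of 10516 genes found in at least 25 cells of each library, those most like Apol7c across all cells by the lower r of both libraries were Fscn1 (0.585 and 0.682), Cacnb3 (0.548 and 0.656) and Nudt17 (0.524 and 0.685). Next were the annexin Anxa3, Socs2, a suppressor of cytokine signalling, the fatty acid binding protein Fabp5, the nonclassical MHC class I gene H2-M2 and the tetraspanin Tspan3, with lower values from 0.505 to 0.426. Ccr7 stood at rank 52, with 0.396 and 0.215. For Apol10b the order was Apol7c, H2-M2, Ccl5, Eno3, Fscn1, Nipal1, Fxyd2 and Spint2. The lower r was 0.362 for Apol7c and only 0.193 to 0.171 for the rest. This order rests on 5 and 6 cells with Apol10b, fewer than the 25 asked of the compared genes. The cells share depth and library, so these values describe a pattern and carry no test.

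Within Fscn1-high cells alone, 5307 genes could be compared. Tmem176a, Ostf1, Rcsd1 and Fscn1 were among the genes with the highest lower r with Apol7c, with Fscn1 at 0.387 and 0.482 in 85 and 77 cells. Genes at the negative end included Gdi2 (-0.394 and -0.522), Pkib, Spag9, the ferritin chain Fth1, Plbd1 and the MHC class II genes H2-Aa (-0.266 and -0.343) and H2-Eb1 (-0.263 and -0.347). Costimulatory genes lay on both sides. Cd86 was negative at -0.232 and -0.278, as was Cd80 at -0.142 and -0.164. Cd40 was positive at 0.225 and 0.257, as was Icosl at 0.365 and 0.140.

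Fscn1-high cells were also divided by whether an Apol7c UMI remained at 5000 UMIs. With and without one there were 29 and 51 cells in the cDC1 library (median depths 11600 and 13551 UMIs). In the cDC2 library there were 31 and 41 (10682 and 11098). The division rests on the same Apol7c counts as the correlations and was made after values were seen, so it is no separate support. Fscn1 was at 2960 CPM with and 1822 CPM without Apol7c in the cDC1 library, a ratio of 1.62 (1.5 to 1.76). It was at 2365 and 1139 CPM in the cDC2 library, a ratio of 2.08 (1.88 to 2.30). H2-M2 had ratios of 2.44 (1.87 to 3.19) and 7.31 (5.04 to 10.9), Socs2 2.08 and 2.48, and Ccl5 2.06 and 3.14. Ccr7 differed less, at 1.19 (1.12 to 1.27) and 1.39 (1.29 to 1.48). Costimulatory genes went both ways. Cd40 had ratios of 1.71 (1.22 to 2.38) and 1.91 (1.39 to 2.64) and Cd83, a maturation marker, 1.44 (1.29 to 1.62) and 1.41 (1.27 to 1.57), while Cd86 had 0.735 (0.581 to 0.925) and 0.577 (0.451 to 0.735). Il12b, a subunit of interleukin 12, had a ratio of 0.465 (0.412 to 0.522) in the cDC1 library and 1.22 (0.967 to 1.54) in the cDC2 library.

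Lineage genes moved with this division in the cDC1 library. Xcr1 was at 49.3 CPM with and 113 without Apol7c, a ratio of 0.434 (0.249 to 0.722). Cadm1 was at 25.9 against 81.9 CPM (0.316, 0.144 to 0.623) and the transcription factor Irf8 at 684 against 851 (0.804, 0.694 to 0.930). Clec9a had 28.5 against 41.0 CPM, with an interval of 0.315 to 1.43 that spans 1. Of 6 cDC2 genes, Sirpa was at 38.9 against 9.56 CPM, a ratio of 4.07 (1.56 to 11.8), and Cd209a had 8 UMIs against 0. Zeb2 had a ratio of 1.64 (0.720 to 3.71), Mgl2 0.720 and Irf4 0.670, and Itgam had 1 UMI in all. Among cDC2 cells Xcr1 and Clec9a had 1 UMI each in all, and Sirpa had a ratio of 1.38 (0.976 to 1.94). There Irf4, Itgam and Mgl2 were lower with Apol7c, at 0.507, 0.469 and 0.703. Cd209a went the other way in these cDC2 cells, at 356 against 281 CPM, a ratio of 1.27 (1.001 to 1.598). Zeb2 had a ratio of 0.969, with an interval of 0.737 to 1.27 that spans 1, so the cDC2 genes did not move together. The part that cells of the other lineage within the cDC1 sort have in these values was not tested.

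Between the libraries, Apol7c in Fscn1-high cells was at 527 CPM for cDC2 and 364 CPM for cDC1, a ratio of 1.45 (1.27 to 1.65). This was under the 2-fold rule, which 12.4% of 6769 genes passed upwards. The ratio was 2.01 with a mitochondrial limit of 5% and 1.57 without the cell of most Apol7c UMIs in each library. Apol10b was at 5.13 and 9.68 CPM, a ratio of 0.530 (0.144 to 1.65). Fscn1-high cells outside the mature cluster numbered 5 and 15, and Apol7c was found in 1 of the 5 (5 UMIs) and in none of the 15.

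Other family genes were at or near 0 UMIs, apart from Apol8 and Apold1. Apol6, Apol7a, Apol7b, Apol9a, Apol9b, Apol10a and Apol11a had 0 UMIs in both libraries. Whether a 3′ end is unique was checked for Apol7c and Apol10b only, so 0 UMIs need not mean no transcript. Apol7e and Apol11b had 1 UMI each, and Apol7d 3. Apol8 had 80 and 177 UMIs, or 2.28 and 4.58 CPM, and Fscn1-high over resting ratios of 1.59 (0.421 to 4.26) and 0.459 (0.0547 to 1.71). Apold1, a more distant relative known from vessel walls, had 8 and 105 UMIs.

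Genes of 3 related processes were read in the same contrast, Fscn1-high over resting, in which all measured genes had a median log2 ratio of -0.07 and -0.04. Of 12 and 9 measured interferon-stimulated genes, 9 and 6 were at least 2-fold higher and 1 and 1 lower, with medians of 2.51 and 1.96. Most of the higher genes were under 10 CPM in resting cells and so were measured only through their Fscn1-high level. These were Isg15, Oas1a, Oasl1, Gbp2, Gbp4, Gbp5 and Usp18 in the cDC1 library and Mx1, Cxcl9, Gbp2 and Usp18 in the cDC2 library. List genes not measured, of 25 found, were under 10 CPM in both states. Nothing is therefore read from this count about the list. Gbp2, a guanylate-binding protein that acts on pathogen vacuoles, was at 57.2 against 0.418 CPM and at 78.0 against 7.38 CPM. Cxcl9 was lower in the cDC1 library (1.76 against 13.3 CPM) and higher in the cDC2 library (12.3 against 3.16), and Cxcl10 was lower in the cDC2 library (8.21 against 37.7). A separate cluster of 19 cells led by the interferon-stimulated genes Cxcl9, Rsad2 and Ifit3 had no Apol7c UMI, which allows up to 15.8% of its cells (3 of 19) to have one.

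Of 24 and 23 measured genes of cross-presentation and the phagosome, 4 and 0 were higher and 4 and 3 lower, with medians of 0.19 and 0.07. B2m, the light chain of MHC class I, was 2.82-fold and 1.83-fold the resting level. Wdfy4, required for cross-presentation in cDC1, was at 115 against 503 CPM and at 87.2 against 238 CPM. Of 18 and 20 measured genes of membrane damage and repair, 2 and 1 were higher and 3 and 3 lower, with medians of 0.09 and 0.14. The higher ones were the pore-former Gsdmd (59.9 against 26.7 CPM) and Tecpr1 (14.1 against 4.82) in the cDC1 library, and the ESCRT ATPase Vps4a (26.7 against 12.9) in the cDC2 library. Lgals3, a galectin that marks damaged vesicles, was lower in both, at 307 against 793 and 384 against 836 CPM. For these 3 lists the shares of all genes past the rule were 13.9% and 9.79% upwards and 15.8% and 11.3% downwards. Counts of the last 2 lists lay near those shares.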

How the data were processed

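For each library the authors deposited a matrix of unnormalized UMI counts (10x Chromium v3.1 3′ kit, per the labels). The submitters' processing notes name Cell Ranger 3.2, mm10 and Seurat, while the matrices carry software version 3.0.2, per the file headers. Barcodes under 500 genes, under 1000 UMIs or above 10% mitochondrial UMIs were removed, leaving 2574 of 2939 and 2835 of 3045 barcodes. Scrublet marked 1 cell per library, too few to rely on, so doublets stayed in. Cells were clustered with scanpy 1.11.5 without the 14 Apol family genes (2000 variable genes, 30 components, 20 neighbours, resolution 1, 17 clusters) and named from marker lists. UMIs were summed per state and scaled to CPM. The 2-fold rule of size took genes that reached 10 CPM in either sum. Folds against 0 UMIs used a floor of 3 UMIs. With 1 library per sort no test across libraries exists. On simulated counts for the Fscn1-high over resting contrasts, the rule recovered 200 of 200 genes changed 4-fold in each library. It called 1.34% and 1.44% of unchanged genes, among 6330 and 6514 genes. The simulated counts held Poisson error only, without the spread between cells, so these rates do not carry over to the data. Recovery of 4-fold changes by a 2-fold rule was nearly given.

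The members, lists and rules were chosen with earlier results of these data known. Named genes were the family, Ccr7, Fscn1, the 8 genes most like each member, the 3 list genes on either side in the share of rise, lineage genes, and up to 4 genes past 2-fold of largest ratio in each of 3 further lists. The genes followed within Fscn1-high cells, the maturation genes compared with and without Apol7c, the genes lower in a list and B2m in the cDC2 library were named after their values were seen, as were the finer bins, the division by Apol7c and the motifs. Some genes that these rules name are not reported here. Of 31053 gene IDs, 30934 matched GENCODE vM21 (GRCm38), the source of coordinates. RefSeq promoters matched both members. Ends were compared with blastn 2.17.0. Correlations are Pearson r across cells. Alternatives covered cell filters, doublets, state limits, normalization and thinning.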

Additional observations from a re-analysis of the deposited data

How the results depend on the processing

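Of 261 alternative values for 36 results, 233 stayed within the counting interval of the reported value (or, for counts of genes, within 1.5-fold). The other 28 moved beyond it, and 0 changed direction. Levels, shares of cells and counts of genes cannot fall below 0, so only the other results had a direction to change. No paired analysis was possible because each sort has 1 library. The Fscn1-high over resting ratio of Apol7c ran from 1563 to 2119 in the cDC1 library and from 667 to 1132 in the cDC2 library. With a mitochondrial limit of 5%, the library ratio was 1.61, the mature ratio 2.01 and the cDC2 step from Ccr7-positive Fscn1-low to Fscn1-high cells 247. With dendritic clusters only, the library ratio was 1.57, and score bins at 90 to 95, 95 to 98 and 98 to 100 had 1.37, 216 and 438 CPM (cDC1) and 13.7, 259 and 1042 CPM (cDC2). With the score from cells thinned to 2000 UMIs, 90 to 95 had 1.16 and 8.28 CPM and 95 to 98 of the cDC1 library 123 CPM. With an Fscn1 limit of 5 the mature ratio was 1.73. With an Fscn1 limit of 1, the cDC2 library gave 1.57 for Ccr7-positive Fscn1-low over resting cells, 425 for the next step and 0.0854% for the share of rise, and with no Fscn1 UMI allowed 1.56, 516 and 0.0699%. Both settings remove the cells with 20 and 14 Apol7c UMIs from that state. With a Ccr7 limit of 5 that share was 0.621%. Thinned to 2000 UMIs, Apol7c was in 21.2% of Fscn1-high cells of the cDC1 library, and without thinning Apol10b was in 5.88%. Without a minimum CPM, 4109 and 3442 genes were 2-fold higher in Fscn1-high than in resting cells, against 928 and 684. The cause of the other shifts was not tested. The cell of most Apol7c UMIs in each library was left out after seeing the data, and no value then moved beyond its interval. Apol10b had 18 UMIs in all, which limits the precision of each of its values.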
